A study of Mus musculus with 16 samples.

Results

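Imprinted genes are expressed mainly from the copy inherited from 1 parent, and 38 of them were described here in the distal mouse forelimb bud. They were the genes of a named list that were found by symbol in a count table of 53800 genes, of which 28342 had any count. RNA was sequenced from B6 embryos in 16 libraries, which form 8 groups of 2: ectoderm and mesoderm on embryonic days E9.5 and E10.5, and on days E11.5 and E12.5. The ectoderm is the surface epithelium of the bud, and the mesoderm is everything beneath it, including mesenchyme, vessels and blood. All groups were embryos of the B6 strain, no genotype or treatment is named for any of them, the tips were held in trypsin on ice, and the layers were parted with forceps. Ectoderm and mesoderm that share a stage and a replicate number were taken from 1 batch of embryos. Replicate 1 RNA was purified with the RNeasy Plus Mini Kit and replicate 2 RNA with the RNeasy Mini Kit, so that the kit and the embryo batches cannot be told apart. Each library came from a batch of embryos, and with 1 strain named for all of them, the parental copies were not told apart in these counts.

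At an imprinted locus, DNA methylation set in the egg or the sperm marks 1 parental copy, and the genes around the marked region follow that mark. Many paternally expressed genes promote growth of the embryo, as the growth factor Igf2 does, and many maternally expressed genes restrain it, as the cell cycle inhibitor Cdkn1c, the receptor Igf2r that clears the IGF2 protein, and the adaptor Grb10 that dampens insulin and IGF receptor signalling do. Imprinted genes lie in clusters that often hold a long noncoding RNA, among them H19, Meg3, Rian, Mirg and Kcnq1ot1. Of the 38 genes, 18 lie on chromosome 7, 6 on chromosome 6 and 5 on chromosome 12. By textbook knowledge 20 are expressed from the paternal copy, 13 from the maternal copy, and 5 from a copy that depends on the tissue or the promoter.

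Total counts ran from 10005867 to 30438214 per library, and 37 of the 38 genes passed the filter on low counts. Ascl2, a transcription factor of the trophoblast, did not pass, with 0.412 CPM as its highest value in ectoderm and 0.382 CPM in mesoderm. CPM are counts scaled to the effective library size, in the usual unit of counts per 1000000. Summed markers of the surface epithelium ran from 1446 to 2576 CPM in ectoderm libraries and from 5.31 to 36.4 CPM in mesoderm libraries. Those of limb mesenchyme ran from 370.1 to 889 CPM in ectoderm libraries and from 1451 to 3259 CPM in mesoderm libraries. By these sums both layers carried the markers of their label. Within the mesenchyme sum, Pdgfra did not separate the layers, with 56.7 to 491 CPM in ectoderm, against 178 to 457 CPM in mesoderm. Msx1 overlapped too, with 156 to 312 CPM in ectoderm, against 216 to 1315 CPM in mesoderm. Prrx1, Twist1, Tbx5 and Lhx2 did not overlap. In the ectoderm E11.5 replicate 1 library, the median limb mesenchyme marker stood at 44.1% of its level in the mesoderm of the same batch, against 4.12% to 18.3% in the other 7 ectoderm libraries. In the ectoderm E9.5 replicate 2 library, erythroid markers summed to 474.5 CPM, against 10.4 to 147 CPM in the other 7. Endothelial markers summed to 2.32 to 23.3 CPM in ectoderm, against 264 to 484 CPM in mesoderm. In bulk RNA, fewer cells of a type and less RNA per cell cannot be told apart.

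H19, a noncoding RNA that restrains growth, was the most abundant of the 38 genes per length, with a mean of 2313 FPKM in the 8 ectoderm libraries and 972 FPKM in the 8 mesoderm libraries in the authors' deposited table. It ranked number 2 of all genes in ectoderm and number 32 in mesoderm. Igf2 followed in ectoderm, with 1162 FPKM in ectoderm (rank 18 of all genes) and 537 FPKM in mesoderm (rank 84). Gnas, which encodes the stimulatory G protein subunit, had 920.3 FPKM in ectoderm and 815 FPKM in mesoderm. Mest, a gene of the hydrolase family, had 325 FPKM in ectoderm and 728 FPKM in mesoderm (rank 55). Among the lowest, Kcnq1ot1 had 0.0849 FPKM in ectoderm and 0.0392 FPKM in mesoderm, and Kcnq1, the potassium channel gene of the same locus, had 0.0568 FPKM in ectoderm and 0.561 FPKM in mesoderm. The levels of the 38 genes per length therefore spanned more than 4 orders of magnitude within each layer.

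**Figure D1:**
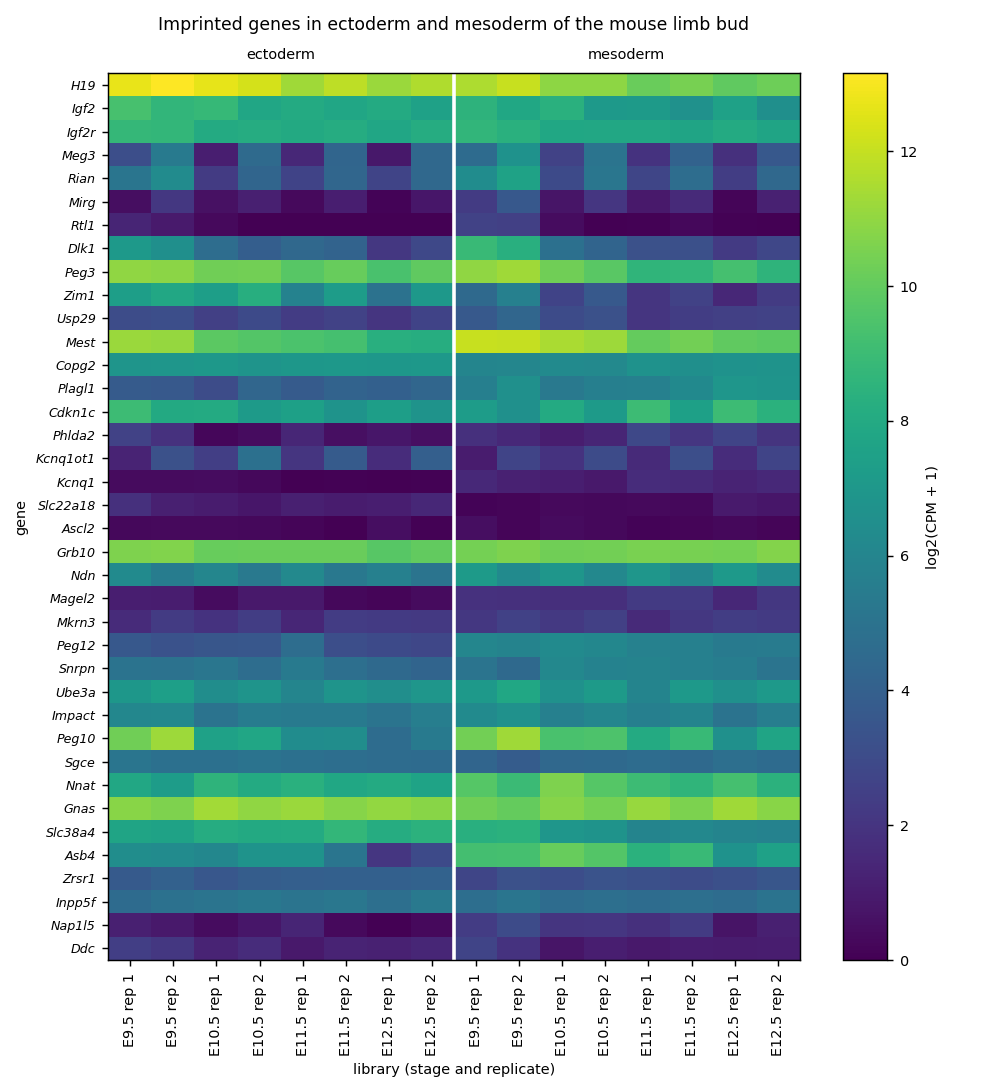
Heat map of log2(CPM + 1) of the 38 imprinted genes (rows) in the 16 libraries (columns; 8 ectoderm libraries left, 8 mesoderm libraries right, by stage and replicate). H19 is the brightest row in ectoderm and one of the brightest in mesoderm, at 2339 to 9143 CPM in ectoderm, against 1002 to 4199 CPM in mesoderm, and the rows of Meg3, Rian, Mirg and Kcnq1ot1 alternate between replicate 1 and replicate 2.

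Several of these loci have alternative first exons that differ in their imprint, and the counts of exon bins (exon segments between the borders of any annotated transcripts) show which were used. Nearly all first exon reads of Mest came from the start in its CpG island, which is the imprinted start. That first exon held 5326 counts in the 8 ectoderm libraries and 18304 counts in the 8 mesoderm libraries, whereas all exons upstream of it held 19 counts in ectoderm and 91 counts in mesoderm. Grb10 likewise used its main first exon, at chr11:12037192-12037401 (mm10, minus strand), with 4080 counts in ectoderm and 6382 counts in mesoderm. The first exons downstream of it, where the paternally expressed transcripts of the nervous system start, held 6 counts in ectoderm and 11 counts in mesoderm. In both layers the counts of these genes thus came from 1 start. The main and the unused start of each gene are shown here to set the used promoter beside the unused one, as RefSeq windows (GRCm38.p6) of 250 bases before the start and 50 after it, read 5′ to 3′ on the strand of the gene. Capitals mark the hexamer TGCCGC or its reverse complement GCGGCA, the core of the site that the imprint-keeping zinc finger protein ZFP57 binds when it is methylated.
Mest, start used, chr6:30737803-30738102, plus strand: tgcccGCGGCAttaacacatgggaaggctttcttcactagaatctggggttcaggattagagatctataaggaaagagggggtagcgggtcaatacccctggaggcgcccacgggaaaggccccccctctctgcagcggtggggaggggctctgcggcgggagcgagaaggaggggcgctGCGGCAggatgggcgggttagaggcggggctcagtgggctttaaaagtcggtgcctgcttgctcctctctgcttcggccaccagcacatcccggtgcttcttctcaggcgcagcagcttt
Mest, upstream start, chr6:30733256-30733555, plus strand: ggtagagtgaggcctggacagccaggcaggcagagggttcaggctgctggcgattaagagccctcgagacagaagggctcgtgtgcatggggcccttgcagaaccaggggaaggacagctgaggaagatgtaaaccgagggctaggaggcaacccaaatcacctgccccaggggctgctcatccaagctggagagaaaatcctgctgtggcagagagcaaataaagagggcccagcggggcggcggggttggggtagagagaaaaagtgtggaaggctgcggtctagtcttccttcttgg
Grb10, start used, chr11:12037371-12037670, minus strand: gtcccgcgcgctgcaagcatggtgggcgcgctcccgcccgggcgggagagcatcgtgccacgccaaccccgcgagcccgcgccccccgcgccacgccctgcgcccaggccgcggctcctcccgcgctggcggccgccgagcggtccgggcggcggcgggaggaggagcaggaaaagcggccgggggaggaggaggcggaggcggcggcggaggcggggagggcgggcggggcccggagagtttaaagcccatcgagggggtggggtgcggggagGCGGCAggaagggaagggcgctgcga
Grb10, downstream start, chr11:12027922-12028221, minus strand: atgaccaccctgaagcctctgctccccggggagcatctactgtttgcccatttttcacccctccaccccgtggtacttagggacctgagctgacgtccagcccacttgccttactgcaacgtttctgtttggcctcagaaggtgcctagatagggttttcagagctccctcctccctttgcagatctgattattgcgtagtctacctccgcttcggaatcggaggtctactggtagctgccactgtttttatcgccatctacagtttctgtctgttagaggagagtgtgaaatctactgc

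The used window of Mest held the hexamer 2 times and 17 CpG dinucleotides, and its upstream window held no hexamer and 8 CpG. The used window of Grb10 held 1 hexamer and 45 CpG, and the downstream window held no hexamer and 9 CpG. Windows of this kind were found for 31 of the 38 genes. At least 1 window held the hexamer on either strand in 10 of the 31, against 13.1% of all 27025 genes with a window. By window it was 11 of 48 (22.9%), overlapping windows of Mest among them, against 11.6% of all 32851 windows. The hexamer itself holds a CpG, and the median number of CpG was higher in the windows of the imprinted genes than in all windows. The difference in hexamer share was not tested. The presence of the letters is a description and no measure of binding. The start of Peg3, a zinc finger gene, faces that of Usp29, a gene of the ubiquitin protease family, and their windows overlap. The Peg3 window is shown because it is shared in part by 2 imprinted genes. Peg3 was higher in ectoderm on average (0.52) and was not called at E9.5 (-0.23). Usp29 was lower at E9.5 (-1.03, adjusted p = 0.0496) and not called on average without a block (-0.35). Its call at E9.5 was lost without any 1 of 12 libraries. The difference between these neighbours was not tested. The Peg3 window held no hexamer and 13 CpG.
Peg3, chr7:6730370-6730669, minus strand: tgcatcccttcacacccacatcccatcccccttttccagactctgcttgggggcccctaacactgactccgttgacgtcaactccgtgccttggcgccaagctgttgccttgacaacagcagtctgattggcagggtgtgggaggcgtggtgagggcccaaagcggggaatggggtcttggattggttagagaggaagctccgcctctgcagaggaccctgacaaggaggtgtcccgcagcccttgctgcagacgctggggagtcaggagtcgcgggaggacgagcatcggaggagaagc

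Gnas used its most downstream first exon, that of the stimulatory G protein, for most of its reads, with 17001 counts in ectoderm and 18811 counts in mesoderm. The Nesp first exons, which start the maternally expressed transcript of a secretory protein, held 307 counts in ectoderm and 189 counts in mesoderm. Their share of all Gnas bin counts was lower at the later stages in both layers, as a description with no test. In ectoderm it was 0.213% and 0.204% at E9.5, then 0.12% and 0.0758% at E10.5, later 0.0102% and 0.0402% at E11.5, and in the end 0.0095% and 0.0144% at E12.5 (replicate 1, replicate 2). In mesoderm it was 0.15% and 0.144% at E9.5, then 0.0543% and 0.031% at E10.5, later 0.00859% and 0.0075% at E11.5, and in the end 0.000961% (1 count) and 0 (0 counts) at E12.5. The first exon of the paternally expressed XLas protein held 18 counts in ectoderm and 46 counts in mesoderm. Exon 1A, the start of a paternal noncoding transcript, held 314 counts in ectoderm and 471 counts in mesoderm. The sources used here do not say whether the counting used strand, so that reads of Nespas, the antisense transcript over the Nesp exons, may be included.

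Use of exon bins between the layers was tested in 12203 genes with edgeR diffSpliceDGE, of which 198 were called (1.62%), and none of the 28 imprinted genes tested was called (0 of 28), of which none had an unadjusted Simes p under 0.05. Blocked by embryo batch, the test called 434 genes (3.56%), among them 2 of the 28, Gnas and Igf2.

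The noncoding RNA H19 is also the host of the microRNA gene Mir675, and Mest is the host of Mir335. The mature microRNAs themselves were not measured by these libraries. Their RefSeq sequences (GRCm38.p6) are shown because the host genes were among the most abundant members, with the seed (bases 2 to 8) in capitals. They lie on chromosome 7 and chromosome 6.
mmu-miR-675-5p: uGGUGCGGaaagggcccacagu
mmu-miR-675-3p: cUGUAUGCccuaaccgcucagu
mmu-miR-335-5p: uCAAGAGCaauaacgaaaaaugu

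The first comparison asked which imprinted genes differed between the ectoderm and the mesoderm beneath it, as an average over the 4 stages. In ectoderm, 9 of the 37 genes tested were higher and 13 were lower. Over all 15501 genes tested, 24.3% were higher and 21.4% were lower in ectoderm, so the share of imprinted genes higher in ectoderm was at the background, and the share lower was above it. The median log2 fold change was -0.32 over the 37 genes and 0.01 over all genes tested. Calls rest on edgeR's quasi-likelihood test with Benjamini-Hochberg adjusted p under 0.05 over all genes tested, which holds for each comparison below.

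The genes higher in ectoderm were led by Zim1, a zinc finger gene of the Peg3 locus that is expressed from the maternal copy. Zim1 had 30.4, 159 and 299 CPM as the lowest, median and highest ectoderm values and 1.74, 5.12 and 51.3 CPM in mesoderm, a log2 fold change of 4.21 (SE 0.41, adjusted p = 5.49e-06). The layers overlapped only through the mesoderm E9.5 replicate 2 library. Slc22a18, a transporter gene of the Kcnq1 locus, had 0.734 to 2.53 CPM in ectoderm, against 0.0955 to 0.915 CPM in mesoderm (2.196, SE 0.27, adjusted p = 3.23e-05). Slc38a4, an amino acid transporter gene, had 191 to 423 CPM in ectoderm, against 57.0 to 334 CPM in mesoderm (1.35, SE 0.11, adjusted p = 8.51e-07), and its layers overlapped.

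H19 was higher in ectoderm as well (1.31, SE 0.14, adjusted p = 1.02e-05). Its values overlapped across stages but at each single stage both ectoderm libraries stood above both mesoderm libraries. Igf2, its neighbour, had 184 to 646 CPM in ectoderm, against 94.1 to 367 CPM in mesoderm (0.74, SE 0.24, adjusted p = 0.0267). The Igf2 call was lost when any 1 of 8 libraries was left out, the 4 ectoderm replicate 1 and the 4 mesoderm replicate 2 libraries, at adjusted p between 0.0519 and 0.0722. Its antisense neighbour Igf2os was also higher (0.60, SE 0.10), and reads of the pair may not be told apart.

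Only Copg2 and Zrsr1 had every ectoderm library above every mesoderm library. Copg2, a coatomer gene, had 112 to 131 CPM in ectoderm, against 62.3 to 107 CPM in mesoderm (0.54, SE 0.06). Zrsr1, a gene of a splicing factor family that lies in an intron of Commd1 on the other strand, had 11 to 16.5 CPM in ectoderm, against 5.64 to 10.6 CPM in mesoderm (0.81, SE 0.13). Peg3 (0.52, SE 0.14) and Sgce, which encodes epsilon sarcoglycan (0.39, SE 0.10), were higher by less than 1 log2 unit, with overlapping layers.

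The genes lower in ectoderm were led by Kcnq1, with 0 to 0.355 CPM in ectoderm, against 0.887 to 2.22 CPM in mesoderm (-3.94, SE 0.39, adjusted p = 6.58e-06). Its level in ectoderm was near the floor of the counts. At E11.5 it had 1 count in ectoderm and 80 counts in mesoderm, and the ratio of mesoderm to ectoderm was 82.2 (95% counting interval 14.3 to 3285). The fitted fold change therefore depends on the prior count of the fit. Asb4, a gene of a SOCS box protein known from blood vessel development, had 3.29, 73.8 and 108 CPM as the lowest, median and highest ectoderm values and 104, 544 and 1111 CPM in mesoderm (-3.43, SE 0.27, adjusted p = 8.79e-07). The layers of Asb4 overlapped through the mesoderm E12.5 replicate 1 library.

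Of the 6 genes of the Snrpn-Ndn locus on chromosome 7, 4 paternally expressed ones were lower in ectoderm. Peg12 had 6.0 to 25.2 CPM in ectoderm, against 42.1 to 78.7 CPM in mesoderm (-2.45, SE 0.20, adjusted p = 1.09e-06). Magel2 had 0.137 to 1.161 CPM in ectoderm, against 1.74 to 3.66 CPM in mesoderm (-2.34, SE 0.31, adjusted p = 7.28e-05). In both, the layers did not overlap. Ndn, which encodes the growth-limiting MAGE protein necdin (-0.96, SE 0.24), and Snrpn, which encodes a spliceosome protein (-0.65, SE 0.14), were lower with overlapping layers. The other 2 genes of the locus, Mkrn3 (-0.16, SE 0.23, adjusted p = 0.626) and Ube3a (-0.23, SE 0.21, adjusted p = 0.417), both of ubiquitin ligases, did not pass the test.

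Plagl1, a zinc finger transcription factor known to act on other imprinted genes, had 7.27 to 19.2 CPM in ectoderm, against 38.3 to 120 CPM in mesoderm (-2.27, SE 0.21, adjusted p = 3.59e-06), with no overlap. Nap1l5, a nucleosome assembly gene in an intron of Herc3, had 0 to 1.53 CPM in ectoderm, against 0.61 to 7.01 CPM in mesoderm (-2.39, SE 0.45). Mest had 296 to 2359 CPM in ectoderm, against 915 to 4316 CPM in mesoderm (-1.25, SE 0.09, adjusted p = 3.02e-07), and its layers overlapped across stages but not within a stage. Phlda2, which limits growth of the placenta (-1.59, SE 0.32), Peg10, a gene derived from a retrotransposon (-1.53, SE 0.23), Nnat, which encodes a membrane proteolipid (-1.36, SE 0.21), and Grb10 (-0.28, SE 0.08) were also lower.

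Summed markers of limb mesenchyme and of endothelium were lower in ectoderm as well, as given above. The sum of cartilage markers was not, with 492 to 1972 CPM in ectoderm, against 71.35 to 1172 CPM in mesoderm. That sum was mainly Col2a1 in ectoderm, with 463 to 1933 CPM, against 20.3 to 550 CPM in mesoderm. Means were lower in ectoderm for Col9a1 (8.70 against 97.2 CPM), Sox9 (34.7 against 113 CPM) and Acan (0.500 against 0.765 CPM). Matn1 had almost no counts in either layer. The part of those cells in the difference was not tested. Of the 13 genes lower in ectoderm, 9 stood higher in the ectoderm E11.5 replicate 1 library, where mesenchyme markers were high, than in replicate 2. The share over all genes is not given. Several of the 9 stood lower in replicate 2 in other groups too. Replicate 2 was higher in 0 of 8 groups for Ndn, Nnat and Snrpn, and in 1 of 8 for Mest. It was higher in 2 of 8 for Phlda2 and Peg12, in 5 of 8 for Asb4 and Magel2, and in 6 of 8 for Nap1l5. In ectoderm at E11.5, Peg12 had 7.88 CPM in replicate 2 and 25.2 CPM in replicate 1. Asb4 had 33.6 CPM in replicate 2 and 107 CPM in replicate 1. The other 4 of the 13 did not stand higher in that replicate 1 library. Plagl1 had 17.2 CPM in replicate 2 and 12.9 CPM in replicate 1. In the same order Peg10 had 87 and 83.4 CPM, Grb10 had 1135 and 1123 CPM, and Kcnq1 had 0.0662 and 0 CPM. Without the ectoderm E11.5 replicate 1 library the log2 fold change was -2.77 for Peg12, -3.75 for Asb4, -2.27 for Plagl1 and -1.32 for Mest.

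**Figure D2:**
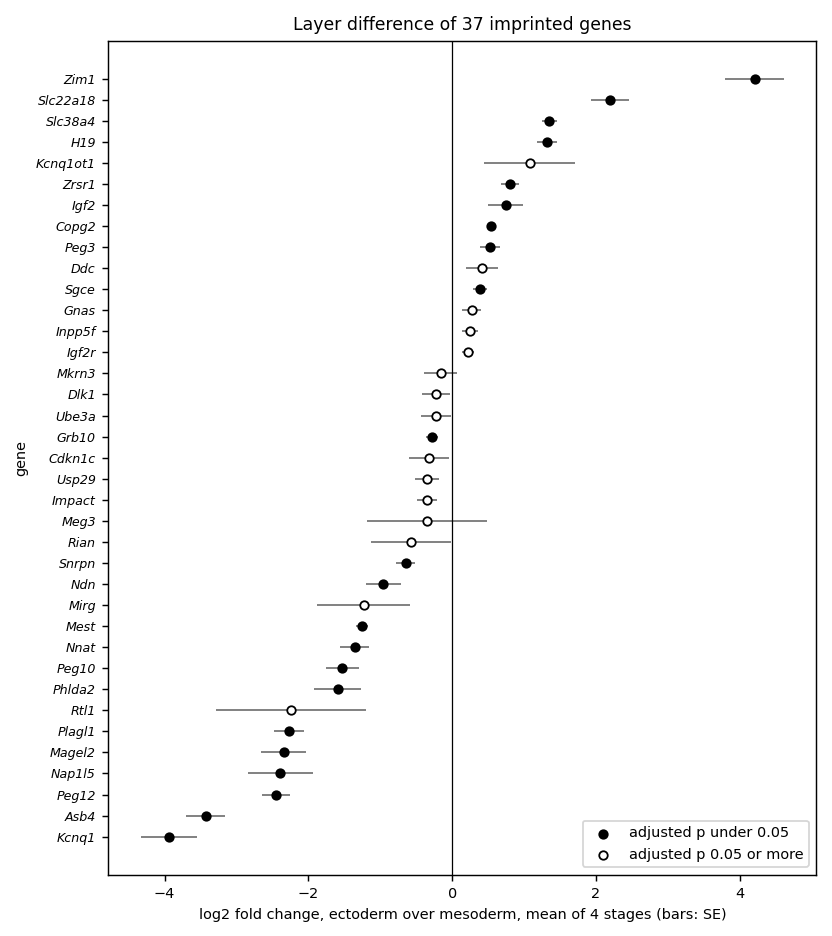
Log2 fold change of ectoderm over mesoderm for the 37 imprinted genes tested (x axis, mean of 4 stages, bars 1 SE), sorted by size. Filled points are the 22 genes called, from Zim1 (4.21) at the top to Kcnq1 (-3.94) at the bottom.

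Because ectoderm and mesoderm of 1 batch came from the same embryos, the comparison was also fitted with the embryo batch as a block. All 22 calls held, and 34 of the 37 genes were called, against 65.9% of all genes. The 12 genes added were Kcnq1ot1 (0.90), Gnas (0.28), Inpp5f, a phosphatase gene (0.24), and Igf2r (0.22), higher in ectoderm, and Mirg (-1.28), Meg3 (-0.61), Rian (-0.55), Usp29 (-0.36), Impact, a regulator of translation (-0.35), Cdkn1c (-0.30), Dlk1, a gene of a membrane protein of the Notch ligand type (-0.23), and Ube3a (-0.20), lower in ectoderm. The largest of their adjusted p was 0.028, that of Meg3.

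At single stages the layers were compared with 2 libraries on each side. At E9.5, 6 of the 37 genes were higher in ectoderm (13.1% of all genes) and 9 were lower (8.29%). At E10.5, 5 were higher (16.2%) and 9 lower (10.2%). At E11.5, 6 were higher (12.9%) and 8 lower (7.69%), and at E12.5, 4 were higher (13.3%) and 10 lower (13.2%). Blocked by embryo batch, the test called 26 at E9.5 (42.4% of all genes), 26 at E10.5 (48.6% of all), 25 at E11.5 (40.0% of all) and 21 at E12.5 (45.7% of all). Single libraries decided much of these counts. Without the ectoderm E9.5 replicate 2 library 3 genes were higher and 4 lower at E9.5, and without the mesoderm E9.5 replicate 1 library 3 were higher. Without any 1 of the 4 libraries of E10.5, 4 or 5 were lower at that stage. Without the ectoderm E11.5 replicate 2 library 3 were higher and 5 lower at E11.5, and without the mesoderm E11.5 replicate 1 library 3 were higher.

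At each of the 4 stages 7 of the 37 genes were called, against 10.8% of all genes. H19 and Zim1 were higher in ectoderm at every stage, and Mest, Plagl1, Peg12 and Asb4 were lower at every stage. Slc38a4 changed sides: it was lower in ectoderm at E9.5 (-0.70) and higher at E10.5 (1.26), at E11.5 (2.39) and again at E12.5 (2.45). Its E9.5 call was lost without any 1 of the 4 libraries of that stage. Peg10 was not called at E9.5 (-0.03, SE 0.45) and was lower in ectoderm by E10.5 (-1.77), also at E11.5 (-2.11) and again at E12.5 (-2.21). Other single-stage calls were lost without 1 library of their stage: those of H19 at E9.5 (adjusted p up to 0.105) and E11.5 (0.0725), of Zim1 at E9.5 (0.226), of Plagl1 at E10.5 (0.062), and of Peg10 at E10.5 (0.0942), at E11.5 (0.0628) and also at E12.5 (0.051). At no single stage were 16 of the 37 genes called, against 60.3% of all genes.

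Over the time course, more of the imprinted genes fell than rose. From E9.5 to E12.5 in ectoderm, 11 of the 37 genes fell (7.0% of all genes) and 1 rose (9.10%), with a median log2 fold change of -0.86 against 0.00 over all genes. In mesoderm, 15 fell (12.6%) and 5 rose (17.0%), with a median of -0.66 against 0.02. With the replicate number as a block, 26 genes were called in ectoderm (35.4% of all genes), 25 of them falls, and 27 in mesoderm (51.5%), 20 of them falls, and all calls made without the block held. In ectoderm 6 fell without the E9.5 replicate 1 library, 7 without the E9.5 replicate 2 library and 5 without the E12.5 replicate 1 library. In mesoderm 3 rose without the E9.5 replicate 1 library, and 2 without the E9.5 replicate 2 or the E12.5 replicate 1 library, the last of which left 9 falls. The genes that fell in both layers were Asb4, Dlk1, H19, Igf2r, Mest, Peg10, Peg3 and Rtl1, which is 8 of 11 in ectoderm and 8 of 15 in mesoderm. Over all genes 3.14% fell in both layers, which is 44.9% of those that fell in ectoderm and 24.9% of those that fell in mesoderm.

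Peg10 fell furthest among the abundant genes in ectoderm. In ectoderm (replicate 1, replicate 2) it had 1270 and 2409 CPM at E9.5, 187 and 218 CPM at E10.5, 83.4 and 87.0 CPM at E11.5, and 24.2 and 41.7 CPM at E12.5. In mesoderm it had 1306 and 2453 CPM at E9.5, 656 and 722 CPM at E10.5, 263 and 473 CPM at E11.5, and 96.6 and 208 CPM at E12.5. The change was -5.81 (SE 0.55, adjusted p = 6.27e-05) in ectoderm and -3.62 (SE 0.50, adjusted p = 0.000378) in mesoderm, and each stage stood below the one before it in both layers. Sgce starts next to Peg10 on the other strand. It had 24 and 23.1 CPM at E12.5 against 33.4 and 28.3 CPM at E9.5 in ectoderm (-0.39, adjusted p = 0.216), and 27.4 and 23.2 CPM against 18.9 and 13.1 CPM in mesoderm (0.66, SE 0.19, adjusted p = 0.0228).

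Dlk1 fell in both layers. In ectoderm it had 133 and 91.5 CPM at E9.5, 25.4 and 14.4 CPM at E10.5, 20.5 and 17.5 CPM at E11.5, and 3.34 and 6.27 CPM at E12.5 (-4.56, SE 0.44, adjusted p = 6.46e-05). In mesoderm it had 490 and 319 CPM at E9.5, 27.8 and 17.9 CPM at E10.5, 8.69 and 8.12 CPM at E11.5, and 3.66 and 5.98 CPM at E12.5 (-6.40, SE 0.47, adjusted p = 1.29e-05). The layers stood apart at E9.5 and overlapped at E12.5. Rtl1, a retrotransposon-derived gene of the same locus, had 30 counts in ectoderm at E9.5 and 0 at E12.5, which is at least 14.2-fold lower against a floor of 3 counts over the group. The ectoderm call of Rtl1 was lost without any 1 of the 4 ectoderm libraries at E9.5 and E12.5 (adjusted p from 0.065 to 0.132). In mesoderm it had 181 counts at E9.5 and 1 at E12.5, a ratio of 191 (95% counting interval 33.9 to 7602).

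Mest fell in both layers and Peg3 in both. Mest had 314 and 296 CPM at E12.5 against 2359 and 2163 CPM at E9.5 in ectoderm (-2.89, SE 0.18, adjusted p = 1.14e-05), and 973 and 915 CPM against 4316 and 4151 CPM in mesoderm (-2.16, SE 0.18, adjusted p = 2.31e-05). The log2 change of Peg3 was -1.23 in ectoderm (adjusted p = 0.0124) and -2.201 in mesoderm (adjusted p = 0.000291). In ectoderm the Peg3 call was lost without the replicate 1 library of E9.5 or of E12.5 (adjusted p = 0.0715 and 0.115). H19 had 2339 and 3104 CPM at E12.5 against 6849 and 9143 CPM at E9.5 in ectoderm (-1.55, SE 0.28, adjusted p = 0.00314), and 1002 and 1231 CPM against 3021 and 4199 CPM in mesoderm (-1.69, SE 0.28, adjusted p = 0.00113). Igf2 did not pass the test in ectoderm (-1.24, adjusted p = 0.12) or in mesoderm (-1.08, adjusted p = 0.125), and passed in both with the replicate number as a block (-1.22, adjusted p = 0.000419 in ectoderm, and -1.11, adjusted p = 0.000406 in mesoderm).

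Asb4 had 3.29 and 6.66 CPM at E12.5 against 86.0 and 80.7 CPM at E9.5 in ectoderm (-4.08, SE 0.57, adjusted p = 0.000688), and 104 and 181 CPM against 602 and 611 CPM in mesoderm (-2.09, SE 0.51, adjusted p = 0.00953). Without the mesoderm E12.5 replicate 1 library the mesoderm call was lost (adjusted p = 0.0842). Igf2r, the clearing receptor of IGF2, changed by -0.76 on the log2 scale in ectoderm (adjusted p = 0.0132) and by -0.66 in mesoderm (adjusted p = 0.0159). Each of these 2 calls rests on single libraries: without them the adjusted p was 0.0659 to 0.126 in ectoderm (both E9.5 libraries and the E12.5 replicate 1 library) and 0.121 and 0.125 in mesoderm (the E9.5 replicate 1 and the E12.5 replicate 2 library).

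Of the other genes called in ectoderm, Phlda2 (-2.66), Grb10 (-0.79) and Magel2 (-2.29) fell and Slc38a4 rose (0.68, adjusted p = 0.0476). These calls were thin: Slc38a4 lost its call without any 1 of 14 libraries (adjusted p up to 0.264), Magel2 without any 1 of 10 (up to 0.274), Phlda2 without any 1 of 3 (up to 0.111) and Grb10 without any 1 of 2 (up to 0.0746). Called in the mesoderm test and not as falls in the ectoderm test were Zim1 (-3.72), Slc38a4 (-2.48), Nap1l5 (-2.60), Rian (-3.47), Ddc, the DOPA decarboxylase gene next to Grb10 (-1.96), Usp29 (-1.67) and Impact (-1.15). Slc22a18 (2.86), Cdkn1c (1.76), Gnas (0.90), Copg2 (0.72) and Sgce rose in mesoderm. Of the 7 falls, the difference between the layers passed its own test for Slc38a4 alone. Without 1 library each, the calls of Rian (adjusted p up to 0.234), Cdkn1c (0.193), Nap1l5 (0.192), Gnas (0.169), Sgce (0.166), Impact (0.0792), Ddc (0.0771) and Zim1 (0.0631) were lost. Those of Slc38a4, Slc22a18, Usp29 and Copg2 held without any 1 library.

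Over the same days, markers of muscle precursors in mesoderm summed to 0.523 and 0.671 CPM at E12.5 against 47.3 and 29.9 CPM at E9.5, with Myf5 and Myog at 0 at E12.5. Macrophage markers summed to 100.5 and 36.2 CPM at E12.5 against 2.72 and 2.58 CPM at E9.5, and cartilage markers to 1172 and 733 CPM against 103 and 75.3 CPM. Limb mesenchyme markers in mesoderm summed to 3259 and 2337 CPM at E12.5 against 1451 and 1651 CPM at E9.5. In ectoderm 5 of the 8 marker sums were lower at E12.5 in both replicates. Endothelial markers summed to 7.82 and 2.7 CPM at E12.5 against 23.3 and 11.2 CPM at E9.5. Erythroid markers summed to 35.3 and 10.4 CPM at E12.5 against 65.7 and 474.5 CPM at E9.5. Cartilage markers summed to 506 and 492 CPM against 1608 and 1056 CPM, and this sum was mainly Col2a1. Muscle precursor markers summed to 0.366 and 0.593 CPM at E12.5 against 6.01 and 7.36 CPM at E9.5, and those of glia and nerve to 47.2 and 57.8 CPM against 127 and 85.6 CPM. Their part in the changes of the imprinted genes was not tested.

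**Figure D3:**
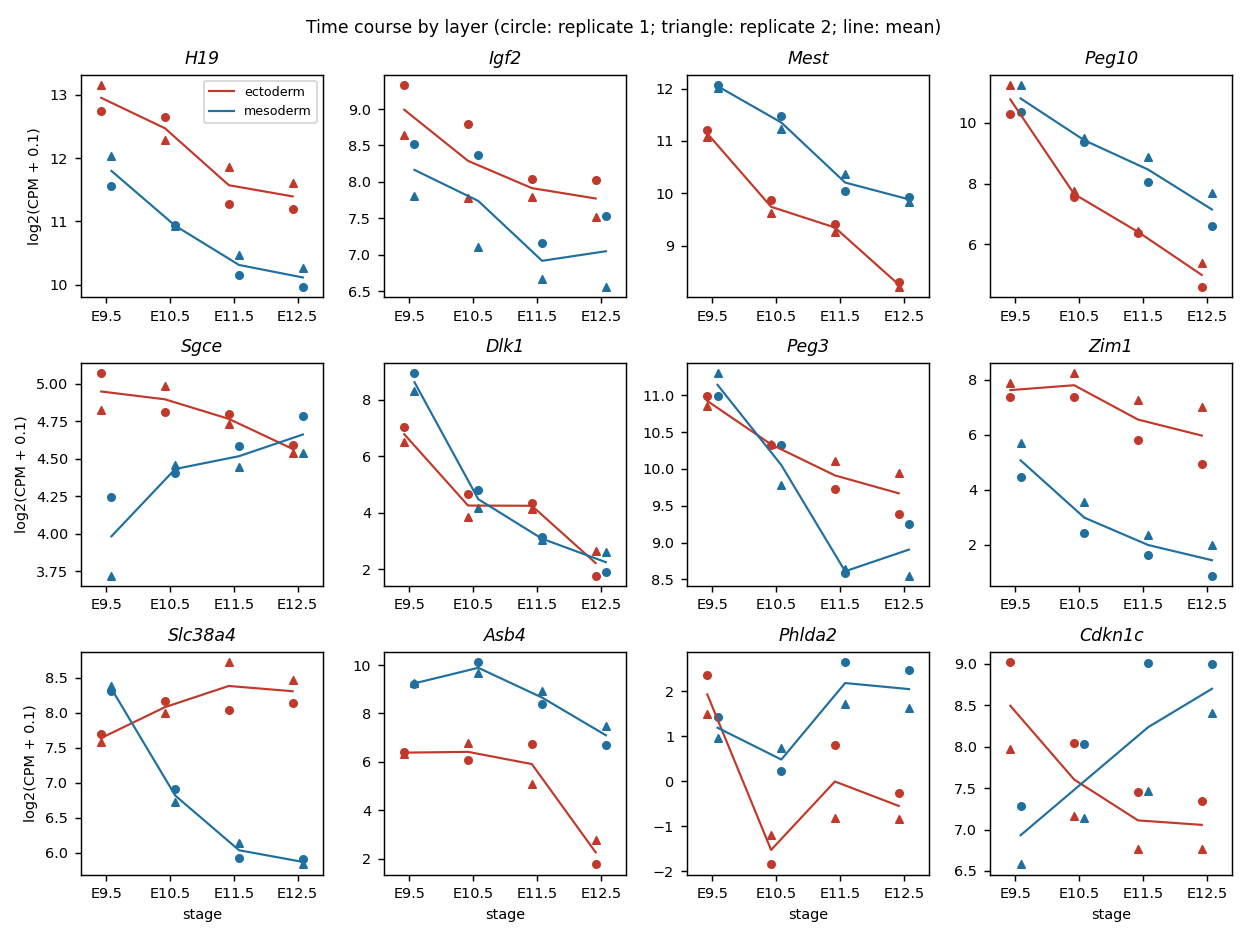
Time courses of 12 imprinted genes in log2(CPM + 0.1) (y axis) over the 4 stages (x axis) in ectoderm (red) and mesoderm (blue), with each library as a point and the mean of 2 as a line. Peg10, Dlk1, Mest and H19 fall in both layers, Slc38a4 crosses between E9.5 and E10.5, and Cdkn1c crosses near E10.5.

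The test of the difference itself, the change in ectoderm minus that in mesoderm, called 6 of the 37 genes: 1 above zero (3.12% of all genes) and 5 below zero (5.15%). Slc38a4 had 283 and 356 CPM at E12.5 against 208 and 191 CPM at E9.5 in ectoderm, and 59.9 and 57.0 CPM against 317 and 334 CPM in mesoderm, a difference of 3.16 (SE 0.30, adjusted p = 0.000166). Cdkn1c had 163 and 109 CPM at E12.5 against 519 and 250 CPM at E9.5 in ectoderm, and 511 and 338 CPM against 156 and 95.5 CPM in mesoderm (-3.26, SE 0.80, adjusted p = 0.0293). Cdkn1c thus stood higher in ectoderm at E9.5 and higher in mesoderm at E12.5 in both replicates. Without a block, neither layer difference was called (adjusted p = 0.0646 at E9.5 and 0.0518 at E12.5). Its fall in ectoderm was not called either (adjusted p = 0.0994).

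Phlda2 had 0.732 and 0.462 CPM at E12.5 against 5.06 and 2.71 CPM at E9.5 in ectoderm, and 5.45 and 2.99 CPM against 2.58 and 1.84 CPM in mesoderm (-3.59, SE 0.87, adjusted p = 0.0278). Slc22a18 had 1.14 and 1.71 CPM at E12.5 against 2.53 and 1.27 CPM at E9.5 in ectoderm, and 0.915 and 0.732 CPM against 0.0955 and 0.123 CPM in mesoderm (-3.25, SE 0.75, adjusted p = 0.0216). Cdkn1c, Phlda2 and Slc22a18 lie in the Kcnq1 locus. Among other genes of that locus, Osbpl5 had a difference above zero (1.25, adjusted p = 0.0258). Kcnq1 had an estimate below zero as they did (-3.26) but was not called (adjusted p = 0.119), with 1 count in ectoderm at E12.5. Kcnq1ot1 was not called (0.44, adjusted p = 0.969). Sgce (-1.05, adjusted p = 0.0364) and Grb10 (-0.82, adjusted p = 0.0482) passed narrowly.

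Most of these calls depend on single libraries, for Sgce and Grb10 also on libraries of stages other than E9.5 and E12.5. The call was lost without any 1 of 6 libraries for Cdkn1c (adjusted p up to 0.117), of 6 for Phlda2 (0.106), of 5 for Slc22a18 (0.1), of 12 for Sgce (0.144) and of 15 for Grb10 (0.188), whereas that of Slc38a4 held without any 1 library. Blocked by embryo batch, the test called 17 of the 37 genes (25% of all genes), the 6 among them, and the 11 added were Zim1 (2.12), Dlk1 (1.82), Rian (1.43) and Nnat (0.73) above zero and Peg10 (-2.13), Asb4 (-2.0), Snrpn (-1.18), Mest (-0.72), Gnas (-0.67), Copg2 (-0.60) and Ndn (-0.52) below zero.

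**Figure D4:**
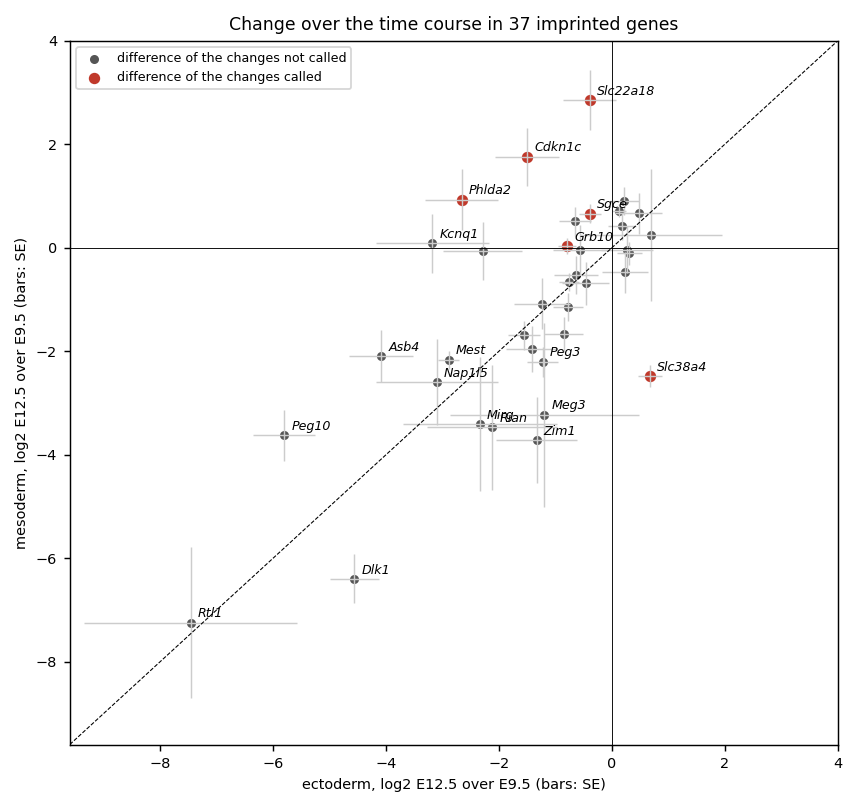
Log2 fold change of E12.5 over E9.5 in ectoderm (x axis) and mesoderm (y axis) for the 37 imprinted genes tested, with bars of 1 SE and a dashed line of equal change. The 6 genes whose changes differed between the layers (red) are Slc38a4 below the line and Slc22a18, Cdkn1c, Phlda2, Sgce and Grb10 above it, and the position of Rtl1, which had 0 counts in ectoderm at E12.5, depends on the prior count of the fit.

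The libraries of a group also differed by replicate number, and this difference was known when the genes were chosen. In replicate 2, 13 of the 37 genes were higher (25.3% of all genes) and 7 lower (27.0%). All 5 noncoding genes were among the 13. Of the 32 protein-coding genes tested 8 were higher and 7 lower. The replicate number stands for the RNA kit and for other embryo batches, which cannot be told apart.

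Meg3 differed most (2.84, SE 0.24, adjusted p = 1.38e-06). In ectoderm it had 39.7 CPM in replicate 2 and 8.02 CPM in replicate 1 at E9.5, 22.1 and 1.15 CPM at E10.5, 18.7 and 1.75 CPM at E11.5, and 20.5 and 0.778 CPM at E12.5. In mesoderm it had 105 and 23.2 CPM at E9.5, 32.3 and 5.11 CPM at E10.5, 16.8 and 2.84 CPM at E11.5, and 11.3 and 2.57 CPM at E12.5. Replicate 2 was higher in 8 of 8 groups.

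Rian, its neighbour on chromosome 12, followed the same order (1.86, SE 0.14, adjusted p = 5.83e-07). In ectoderm Rian had 79.3 CPM in replicate 2 and 34.0 CPM in replicate 1 at E9.5, 18.9 and 3.81 CPM at E10.5, 19.7 and 5.37 CPM at E11.5, and 20.8 and 5.49 CPM at E12.5. In mesoderm Rian had 191 and 82.1 CPM at E9.5, 34.3 and 6.80 CPM at E10.5, 25 and 5.68 CPM at E11.5, and 20.5 and 4.31 CPM at E12.5. Replicate 2 was again higher in 8 of 8 groups, and in each replicate the E9.5 library had the highest Rian value of its layer.

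Mirg, a host of microRNA genes in the same cluster, had 3.38 CPM in replicate 2 and 0.422 CPM in replicate 1 in ectoderm at E9.5, 1.27 and 0.532 CPM at E10.5, 1.13 and 0.256 CPM at E11.5, and 0.725 and 0.0915 CPM at E12.5. In mesoderm Mirg had 11.3 and 3.87 CPM at E9.5, 3.27 and 0.656 CPM at E10.5, 1.93 and 0.887 CPM at E11.5, and 1.34 and 0.131 CPM at E12.5. Replicate 2 of Mirg was higher in 8 of 8 groups (2.0, SE 0.25, adjusted p = 3.04e-05).

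Kcnq1ot1, which is transcribed antisense to Kcnq1 from the paternal copy, had 8.75 CPM in replicate 2 and 1.48 CPM in replicate 1 in ectoderm at E9.5, 28 and 4.35 CPM at E10.5, 12.9 and 3.15 CPM at E11.5, and 14.9 and 2.15 CPM at E12.5. In mesoderm Kcnq1ot1 had 5.47 and 1.0 CPM at E9.5, 6.96 and 2.83 CPM at E10.5, 7.79 and 2.0 CPM at E11.5, and 5.55 and 2.14 CPM at E12.5. It was higher in 8 of 8 groups (2.12, SE 0.18, adjusted p = 1.55e-06). Kcnq1 on the other strand was higher in replicate 2 in 3 of 8 groups and was not called.

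H19 differed from these 4: it was higher in replicate 2 in 6 of 8 groups by a small amount (0.27, SE 0.09, adjusted p = 0.0232), and the call was lost without any 1 of 9 libraries (adjusted p up to 0.0654). With the replicate number as a block, Meg3 and Mirg fell over the time course in both layers (adjusted p = 0.0171 and 0.00829 in ectoderm, 0.000101 and 4.57e-05 in mesoderm), as did Rian in ectoderm (adjusted p = 5.02e-05).

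Among the protein-coding genes, Zim1 was higher in replicate 2 in 8 of 8 groups (1.17, SE 0.15), as were Ube3a (0.63, SE 0.08) and Peg10 (0.63, SE 0.12). Cdkn1c (-0.87, SE 0.09), Ndn (-0.80, SE 0.05), Igf2 (-0.74, SE 0.10), Nnat (-0.63, SE 0.06) and Gnas (-0.36, SE 0.05) were lower in 8 of 8 groups. Calls of Mkrn3 and Phlda2 were lost without any 1 of 10 and any 1 of 8 libraries (adjusted p up to 0.0686 and 0.0845). The longest annotated transcript had a median of 6667 bases in the 13 genes higher in replicate 2 and 2076 bases in the 7 lower ones, against 3932 bases in the 17 not called, which is a description with no test.

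**Figure D5:**
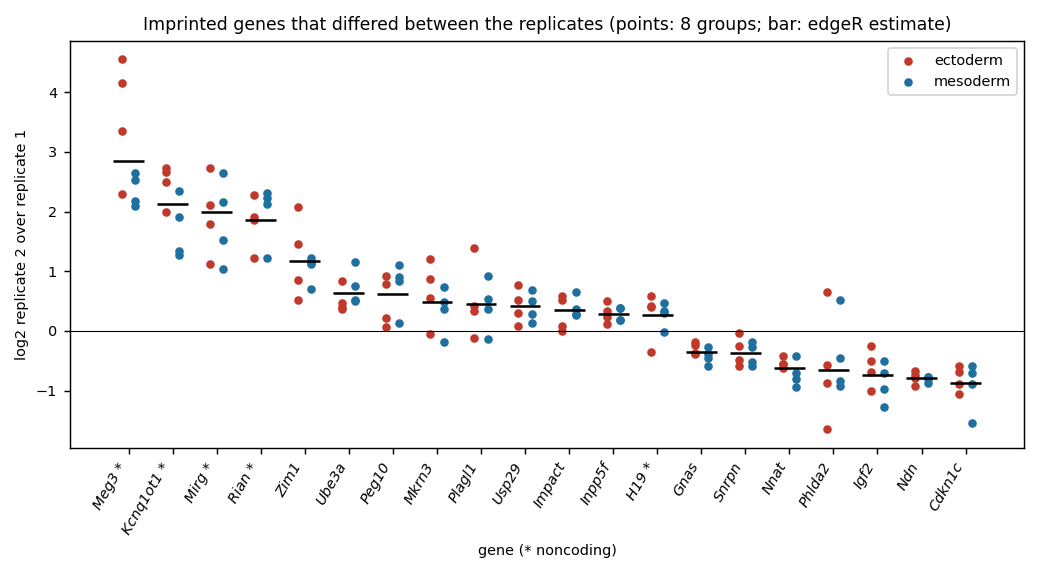
Log2 ratio of replicate 2 to replicate 1 (y axis) for the 20 imprinted genes called (x axis, sorted; a star marks noncoding genes), with 1 point for each of the 8 groups (ectoderm red, mesoderm blue) and a bar for the edgeR estimate. The points of Meg3, Kcnq1ot1, Mirg and Rian all lie above zero, and those of Igf2, Ndn and Cdkn1c all lie below it.

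Other genes of imprinting and of the IGF pathway were counted in the same fits. Of 29 other imprinted genes tested, 6 were higher (24.3% of all genes) and 7 lower (21.4%) in ectoderm on average (median log2 fold change 0.07). From E9.5 to E12.5, 3 rose (9.10% of all genes) and 3 fell (7.0%) in ectoderm, and 6 rose (17.0%) and 8 fell (12.6%) in mesoderm. Osbpl5, a lipid transfer gene of the Kcnq1 locus, rose in both layers (2.61, SE 0.22, in ectoderm and 1.36, SE 0.21, in mesoderm), and its change differed between them (1.25, SE 0.30, adjusted p = 0.0258). Igf2os fell in both (-1.06, SE 0.21, in ectoderm and -1.94, SE 0.22, in mesoderm). With the blocks, 21 were called between the layers (65.9% of all genes), 17 in the ectoderm change (35.4%) and 8 for the difference of the changes (25%). Without the blocks these counts were 13, 6 and 2.

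Of 16 genes that set or keep imprints, 2 were higher (24.3% of all genes) and 4 lower (21.4%) in ectoderm on average. Among them were the DNA methyltransferases Dnmt3b (0.46, SE 0.09) and Dnmt1 (-0.40, SE 0.08). Dnmt3b fell in both layers (-2.11, SE 0.19, in ectoderm and -1.09, SE 0.18, in mesoderm) and Dnmt3a rose in both (1.17, SE 0.20, in ectoderm and 1.67, SE 0.20, in mesoderm). In all 3 of the 16 were called in the ectoderm change, 4 in the mesoderm change and 1, Dnmt3b (-1.01), for the difference of the changes. Over all 15501 genes tested, 2495, 4589 and 1282 were called in these tests. With the blocks 13 were called between the layers, 11 in the ectoderm change, 9 in the mesoderm change and 3 for the difference. No measure of DNA methylation was analysed here.

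Of 16 further genes of the IGF axis, 9 were higher (24.3% of all genes) and 4 lower (21.4%) in ectoderm. Igfbp5, a binding protein of IGFs, had 3736, 5052 and 6027 CPM as the lowest, median and highest ectoderm values and 24.1, 55.0 and 155 CPM in mesoderm (6.33, SE 0.25, adjusted p = 3.36e-09). Igf1, the other growth factor of the axis, had 0.265 to 1.65 CPM in ectoderm, against 1.66 to 6.62 CPM in mesoderm (-2.37, SE 0.21, adjusted p = 2.82e-06), and Pappa2, a protease of IGF binding proteins, was lower as well (-2.71, SE 0.35). Between E9.5 and E12.5, 1 of the 16 was called in ectoderm (Igf2bp1, -1.04), 10 in mesoderm, 5 in each direction, and 3 for the difference. With the blocks 6 were called in the ectoderm change and 7 for the difference.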

How the data were processed

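The data are RNA-seq libraries of ectoderm and mesoderm from the distal forelimb tip. The deposited gene counts are whole numbers per Ensembl gene, unnormalized, from the authors. The deposited FPKM values were made by the authors with Cufflinks, and further deposited files give counts of exon bins. Per the submitters' processing notes reads were processed with cutadapt 1.16, with STAR 2.6.0c, with Cufflinks 2.2.1 and also with bedtools 2.27.1 on mm10, and libraries were polyadenylated and stranded per the labels' protocols. The gene counter and its strand setting are not given in the sources used here, so that values of genes with a neighbour on the other strand, such as Mest and Copg2, Kcnq1 and Kcnq1ot1, Nnat and Blcap or Ube3a and Snhg14, may share reads.

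Counts were tested with edgeR 4.0.16 in R 4.3.3 (TMM scaling, filterByExpr, a mean for each of the 8 groups, quasi-likelihood test, Benjamini-Hochberg adjusted p under 0.05). The filter left 15501 of 28342 genes with any count. SE is the log2 fold change over the square root of F. Alternatives were RLE size factors, DESeq2 1.42.0, no filter, 2 replicate blocks, and each library left out. Where a library is left out of a group of 2, the other one is assumed to vary like the other groups. FPKM served only for levels between genes. Gene positions are from GENCODE M21, where 53740 of 53800 identifiers were found. Exon bins were rebuilt from it, had as many bins as the deposited files in 51401 of 53413 genes, and gave coordinates in 27 of the 38 genes. The scripts were tested on simulated data.

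Per the labels, ectoderm and mesoderm of 1 batch came from the same embryos. The difference of replicate 2 and replicate 1 in ectoderm and mesoderm correlated across genes at r = 0.676, 0.760, 0.621 and 0.717 in the same batch at the 4 stages, and at 0.491 to 0.663 between stages. The pairing thus comes from the labels, and the replicate number marks the kit at all stages.

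Counts carry counting error beside the spread between 2 embryo batches per stage. In the fits without a block, the p-values rest on the spread within groups, estimated over all 16 libraries. That spread includes the difference by replicate number, which stands for kit and batch and was called in 8106 of 15501 genes. Those fits also leave out that both layers share a batch. The fits with a block give the replicate number or the embryo batch its own term. Floors of 3 counts over a group and 95% intervals cover counting error only. All 38 genes could be named in every comparison, and from the other lists the called genes with the largest changes. The imprinted genes and all lists were chosen with earlier results of these data known, and no pattern is independent support for the choice.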

Additional observations from a re-analysis of the deposited data

Results flagged for a closer look

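Genes whose change from E9.5 to E12.5 differed between ectoderm and mesoderm by the test of the difference itself (change in ectoderm minus change in mesoderm, log2) were Slc38a4 (3.16), Slc22a18 (-3.25), Sgce (-1.05), Phlda2 (-3.59), Grb10 (-0.82) and Cdkn1c (-3.26). For Slc38a4 the changes themselves were 0.68 in ectoderm and -2.48 in mesoderm. For Cdkn1c they were -1.50 in ectoderm and 1.76 in mesoderm, and for Slc22a18 -0.40 in ectoderm and 2.86 in mesoderm. For Phlda2 they were -2.66 in ectoderm and 0.93 in mesoderm, for Sgce -0.39 in ectoderm and 0.66 in mesoderm, and for Grb10 -0.79 in ectoderm and 0.03 in mesoderm. With 2 libraries a group, no search within groups for a library far from the others was made.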

How the results depend on the processing

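No call of an imprinted gene changed direction under the settings run, whereas genes that were not called did: without the ectoderm replicate 2 library of the stage, the log2 fold change of Meg3 between layers was -2.47 at E11.5, against 0.05 with it, and -3.12 at E12.5, against 0.62 with it. Size factors of the RLE method moved no count of calls by over 1.5 times. A filter of 10 counts in 4 libraries was run for exon bin use only, where it called 0 imprinted genes as well. With the embryo batch as a block, imprinted genes lower in ectoderm numbered 21 on average and 17 at E9.5, those at E10.5 numbered 11 higher and 15 lower, at E11.5 10 and 15, at E12.5 7 higher, and the difference of the stage changes 5 and 12. Over all genes this block called 6573 genes at E9.5, 7531 genes at E10.5, 6197 genes at E11.5, 7080 genes at E12.5 and 3873 for the difference. Other imprinted genes called were 21 between layers and 8 for the difference, imprint maintenance genes 13 and 3, IGF axis genes 7 for the difference, and exon bin use 2 imprinted genes. With the replicate number as a block, imprinted genes lower were 20 on average and 15 at E9.5, with 11 and 14 at E10.5, 10 and 13 at E11.5, 7 higher at E12.5, 25 falls in ectoderm, and 5 and 11 for the difference. Over all genes it called 6220, 7205, 5839 and 6750 at the 4 stages, 5480 in the ectoderm change, 7987 in the mesoderm change and 3588 for the difference. Other imprinted genes were 20 between layers, 17 in ectoderm and 7 for the difference, maintenance genes 12, 11 in ectoderm, 9 in mesoderm and 3, and IGF genes 6 in ectoderm and 6 for the difference. The blocks changed no call of an imprinted gene other than by adding calls.

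With no filter on low counts 14 imprinted genes were lower at E9.5, 19 fell in ectoderm, and 5 were above zero for the difference. Under that setting 12 other imprinted genes were called in ectoderm and 1 for the difference, and 3 IGF genes in ectoderm. The share over all genes with no filter is not given, so these counts are no result about the imprinted genes. DESeq2 called 2 and 9 imprinted genes and 1929 of all genes for the difference. The cause was not tested. Leaving out 1 library at a time gave 3 to 7 higher and 4 to 10 lower at E9.5, 4 to 11 lower at E10.5, 3 to 7 and 5 to 10 at E11.5, 0 to 1 rises and 5 to 15 falls in ectoderm, 2 to 5 and 9 to 16 in mesoderm, and 0 to 5 below zero for the difference. Over all genes it gave 2084 to 3445 at E9.5, 2692 to 4187 at E10.5, 1803 to 3159 at E11.5, 1110 to 2519 in ectoderm, 2773 to 4622 in mesoderm and 649 to 1300 for the difference. Other imprinted genes ranged over 3 to 6, 6 to 15 and 0 to 2, maintenance genes in mesoderm and for the difference over 2 to 3 and 0 to 1, and IGF genes in ectoderm and for the difference over 0 to 1 and 1 to 3. With 2 libraries a group, small changes of low genes were not detectable.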
